A study of Ogataea parapolymorpha DL-1 with 4 samples.

Results

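Medium with and without cysteine was compared in the met4 mutant of the methylotrophic yeast Ogataea parapolymorpha, strain DL-1, by RNA sequencing of 2 libraries, 1 from B medium and 1 from B medium with 0.5 mM cysteine. These are 2 of the 4 libraries of the study, the other two being the wild type in the same media. Rows entered the comparison with an average of at least 5 FPKM across the 4 libraries (fragments scaled by gene length and library size, the authors' unit) and a span of at least 600 bases, which left 4495 of 5448 rows of the table. The lowest average kept was 5.05 FPKM and the highest left out 4.90, and the spans on either side of the limit were 600 and 599 bases. The mutant carried leu2 and met4::LEU2, so that the LEU2 marker disrupts MET4, and the wild type carried leu2 with LEU2 restored. Both strains had the DL-1 background and were inoculated in YPD, a rich medium, at an OD600 of 0.1. They were collected at 0.3, moved to B medium, described as lacking a sulfur source, or to the same medium with cysteine, and sampled 2 h later. Each group held 1 library, so every value below is unreplicated, and neither tests nor errors can be given. Differences are those of log2(FPKM + 1), B medium minus B medium with cysteine, stand in parentheses after the values (B medium first), and understate the change of low genes. A difference of 1 or more, a fold of at least 2, was counted as higher or lower.

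Yeasts build cysteine and methionine from sulfate, which is taken up, activated, reduced to sulfide and joined to a carbon chain. In budding yeast Met4 is the transcriptional activator of these genes, so a strain without it depends on cysteine, methionine or another reduced sulfur compound. Cysteine is also the sulfur donor of iron-sulfur clusters, of glutathione and of thiolated tRNAs, and its thiol binds copper, zinc and iron. When single amino acids run short, yeasts turn up the synthesis of many amino acids together through Gcn4 in what is called general amino acid control. Growing cells spend much of their transcription on ribosomal protein and glycolytic genes.

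MET4 does not occur as a gene name in the table. The row zip1 (HPODL_03459, chromosome IV, 763543 to 764535 in the table's own coordinates, the genome build being unstated) carries the fission yeast name of the Met4-like factor. It was listed at 0 in both mutant libraries and had 485 and 202 FPKM in the wild type. The neighbouring row HPODL_05198 (764635 to 764962), under 600 bases and so not compared, was likewise listed at 0 in both mutant libraries. It had 2343 and 2757 FPKM in the wild type, B medium first, so the mutant libraries lack signal over more than 1 row. LEU2 (HPODL_02130, chromosome I), the marker, had 696 FPKM without and 810.5 FPKM with cysteine in the mutant. The median level of the compared genes was 57.0 FPKM in both mutant libraries, and their median difference was 0.06, with quartiles at -0.46 and 0.56. Rows under 600 bases held 44.2% of the summed FPKM in B medium and 36.8% with cysteine. FPKM values are shares of a library, so a different amount of RNA per cell cannot be told apart from them. Within the compared genes the median difference was -0.01 for spans of 600 to 999 bases, 0.06 for 1000 to 1999 and 0.14 above. Other ways of scaling the libraries moved the median of all compared genes by between -0.08 and 0.10, so a difference within that band has no fixed sign.

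In B medium 569 genes were at least 2-fold higher (12.7% of those compared) and 513 at least 2-fold lower (11.4%). The differences ran from -6.63 to 5.12. The genes higher in B medium were led by adaptors of ubiquitin ligases, amino acid and vitamin B6 synthesis, mitochondrial aconitase and manganese superoxide dismutase. Those higher with cysteine were led by copper uptake, thioredoxin reductase, cytochrome oxidase assembly and the machinery that makes proteins inside mitochondria. Of the 30 highest rows 25 had a described product, and of the 30 lowest 24 had one. A few of these belong to no family below. PPP1R3C, a protein phosphatase 1 subunit that in mammals directs the phosphatase to glycogen, had 1132 FPKM without and 104 FPKM with cysteine (3.43). NCE103, the carbonic anhydrase, had 249.5 and 26.1 FPKM (3.21). At the other end YEA4, a carrier of UDP-N-acetylglucosamine, had 93.2 FPKM without and 1822 FPKM with cysteine (-4.27). GPR1, named for the glyoxylate pathway regulator, had 628 and 7083 FPKM (-3.49). TOS4, a protein of the G1 to S phase programme in budding yeast, had 6.73 and 60.6 FPKM (-2.99). TOS4 was thus near the bottom of the range in B medium, while PPP1R3C and GPR1 were above the median gene in both media.

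**Figure D1:**
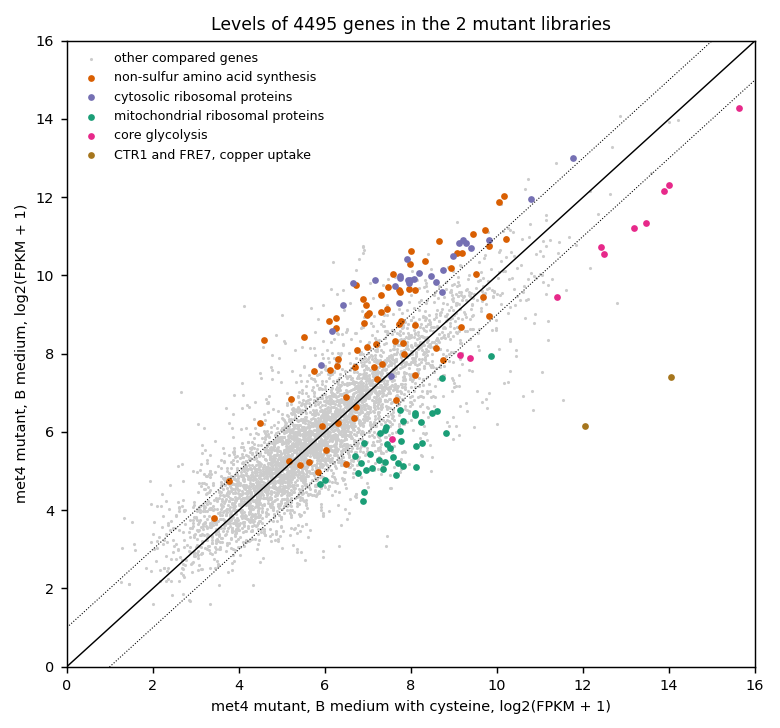
Level of each of the 4495 compared genes in the mutant in B medium with cysteine (x axis) and in B medium (y axis), as log2(FPKM + 1), 1 library per axis. The solid line marks equal levels and the dotted lines a fold of 2. Amino acid synthesis and cytosolic ribosomal protein genes lie mostly above the upper dotted line, and mitochondrial ribosomal protein and core glycolysis genes below the lower one, with CTR1 and FRE7 farthest to the lower right.

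Sorting the genes into 49 families by name and product placed 1333 of the compared genes in at least 1 family. The medians of these families ran from 2.29 for histidine synthesis to -2.76 for cytochrome oxidase assembly factors, against 0.06 for all compared genes. All the families of amino acid synthesis other than the sulfur amino acids had medians above 0. The families with a median below -1 were all mitochondrial, or, with heme and ubiquinone synthesis, partly so.

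**Figure D2:**
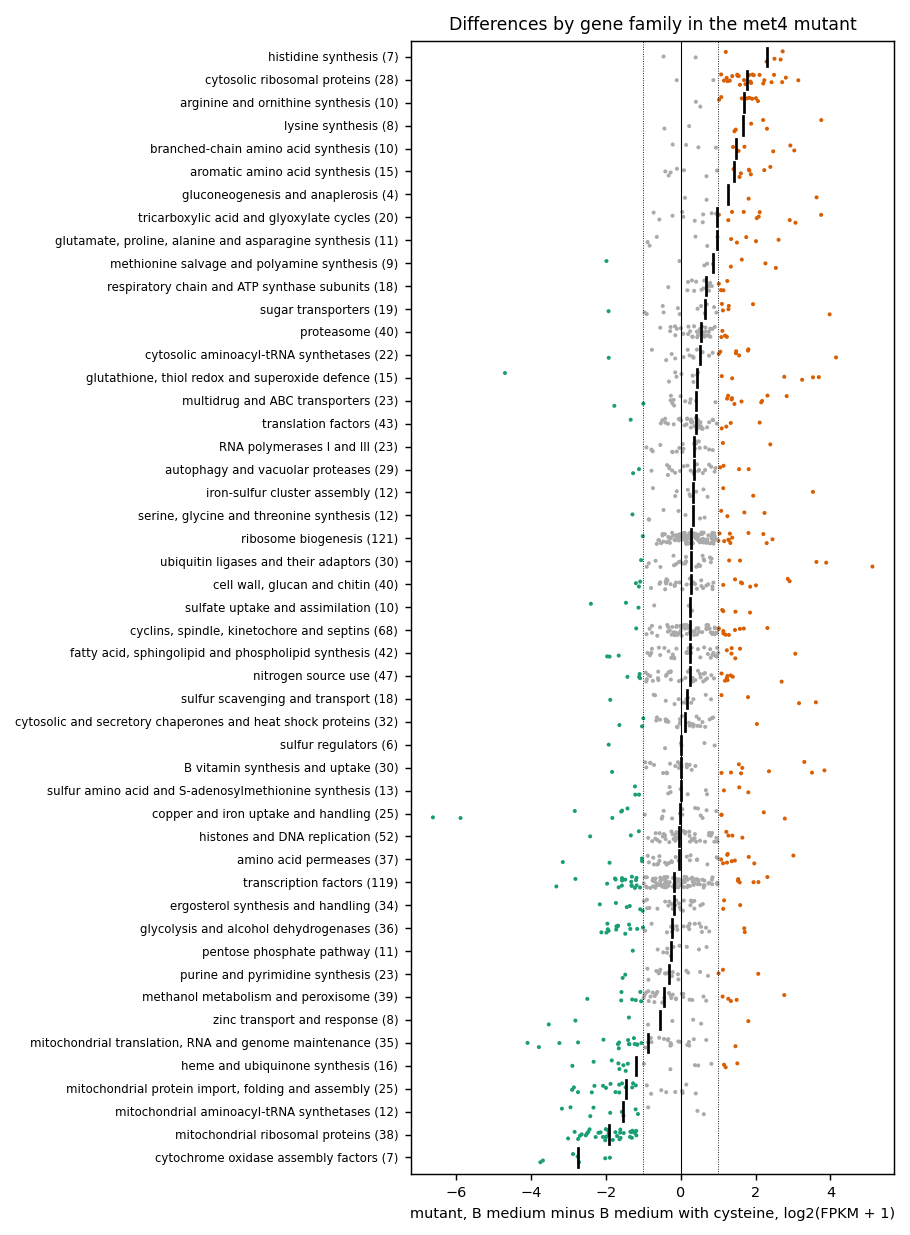
Difference between B medium and B medium with cysteine in the mutant for each member of the 49 families (points), as a difference of log2(FPKM + 1), with the number of compared members in brackets and the median as a black bar. Orange points are at least 2-fold higher and green points at least 2-fold lower in B medium, and the vertical scatter of the points carries no value. Histidine synthesis stands at the top with a median of 2.29 and cytochrome oxidase assembly at the bottom with -2.76.

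Genes for the synthesis of amino acids other than cysteine and methionine were higher in B medium as a group. Of 73 compared rows in 7 pathways, 42 were at least 2-fold higher and 1 lower, with a median difference of 1.34. Together they held 6.08% of the summed FPKM of the compared genes in B medium and 2.28% with cysteine. The lysine pathway had 6 of 8 rows higher. LYS4 (HPODL_02077), the homoaconitase, had 324 FPKM without and 23.1 FPKM with cysteine (3.75). The row LYS21 (HPODL_02806), 1 of 2 rows of the homocitrate synthase that opens the pathway, had 4203 and 1143 FPKM (1.88), and the other (HPODL_04767) 1246 and 252 FPKM (2.30). LYS9 and LYS1, the saccharopine dehydrogenases of the last steps, had 722 and 156 FPKM (2.20) and 2271 and 841 FPKM (1.43). LYS12, the homoisocitrate dehydrogenase of the step after homoaconitase, went the other way within 2-fold, with 281 and 381 FPKM (-0.44). Rows that share a gene name, such as the LYS21 and LEU4 pairs, may divide reads between them, which leaves each value uncertain.

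In the branched-chain pathway 6 of 10 rows were higher. LEU4, the isopropylmalate synthase that commits carbon to leucine, had 862 and 105 FPKM (3.03) in the row HPODL_02231 and 1055 and 189.9 FPKM (2.47) in HPODL_04783. ILV3, a dihydroxy-acid dehydratase and an iron-sulfur enzyme in budding yeast, had 344 and 44.3 FPKM (2.93). ILV2 and ILV6, the catalytic and the small subunit of acetolactate synthase, had 563 and 173 FPKM (1.70) and 1531 and 582 FPKM (1.39), and ILV5, the reductoisomerase, 792 and 271 FPKM (1.54). LEU1, the isopropylmalate dehydratase, had 308 and 222 FPKM (0.47) and ILV1, the threonine dehydratase that feeds isoleucine, 252 and 228 FPKM (0.14), both within 2-fold. LEU2, the marker of the deletion, stood at 696 and 810.5 FPKM (-0.22).

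The arginine pathway had 8 of 10 rows higher and a narrow spread. CPA1, a subunit of the carbamoyl phosphate synthase for arginine, had 1326 and 317 FPKM (2.06). ARG1, the argininosuccinate synthase, was the most abundant with 3756 and 1053 FPKM (1.83), and ARG8, the acetylornithine aminotransferase, had 785 and 209 FPKM (1.90). ARG3, the ornithine carbamoyltransferase, lay near the threshold with 305 and 144 FPKM (1.08), and ARG4, the argininosuccinate lyase, under it with 202 and 141 FPKM (0.52). Histidine synthesis had the highest median of all families, 2.29, with 5 of 7 rows higher. HIS1, the first enzyme, had 669.8 and 117 FPKM (2.50), HIS4, a trifunctional protein, 606 and 123 FPKM (2.29), HIS5, the aminotransferase, 452 and 67.6 FPKM (2.72) and HIS7, the imidazole glycerol phosphate synthase, 482 and 75.03 FPKM (2.67). HIS6 and HIS2, of the isomerase and phosphatase steps, lay within 2-fold at 45.8 and 63.5 FPKM (-0.46) and 118 and 89.2 FPKM (0.39).

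Among aromatic amino acid genes 8 of 15 were higher. ARO4 and ARO3 (HPODL_00199), the DAHP synthases that open the pathway, had 832 and 177 FPKM (2.23) and 2123 and 698 FPKM (1.60). ARO1, which carries out several consecutive steps in budding yeast, had 187 and 52.4 FPKM (1.82), TRP5, the tryptophan synthase, 763 and 214 FPKM (1.83) and ARO8, an aminotransferase for aromatic amino acids and aminoadipate, 401 and 75.7 FPKM (2.39). In the aspartate branch THR4, the threonine synthase, had 1877 and 398 FPKM (2.24) and HOM2, the aspartate semialdehyde dehydrogenase, 802 and 247 FPKM (1.70). The step of HOM2 also serves methionine synthesis. Rows that make glycine were on both sides of 0. The row GLY1 (HPODL_01738), a threonine aldolase, had 35.3 and 88.1 FPKM (-1.29), and SHM2, the cytosolic serine hydroxymethyltransferase, 502 and 905 FPKM (-0.85), within 2-fold. SHM1, the mitochondrial form, had 425 and 273 FPKM (0.63) and the other GLY1 row (HPODL_00754) 413 and 569.6 FPKM (-0.46). ASN1, the asparagine synthetase, had 1569 and 256 FPKM (2.61) and PRO2 and PRO1, the first enzymes of proline synthesis, 503 and 124 FPKM (2.01) and 74.1 and 21.4 FPKM (1.75), while PRO3, of the last step, had 174 and 273 FPKM (-0.64). Rows of ammonium assimilation lay within 2-fold, with GDH1, the NADP-dependent glutamate dehydrogenase, at 229 and 426 FPKM (-0.89), GLN1, the glutamine synthetase, at 1937 and 1188 FPKM (0.71) and GLT1, the glutamate synthase, at 25.98 and 12.7 FPKM (0.98).

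**Figure D3:**
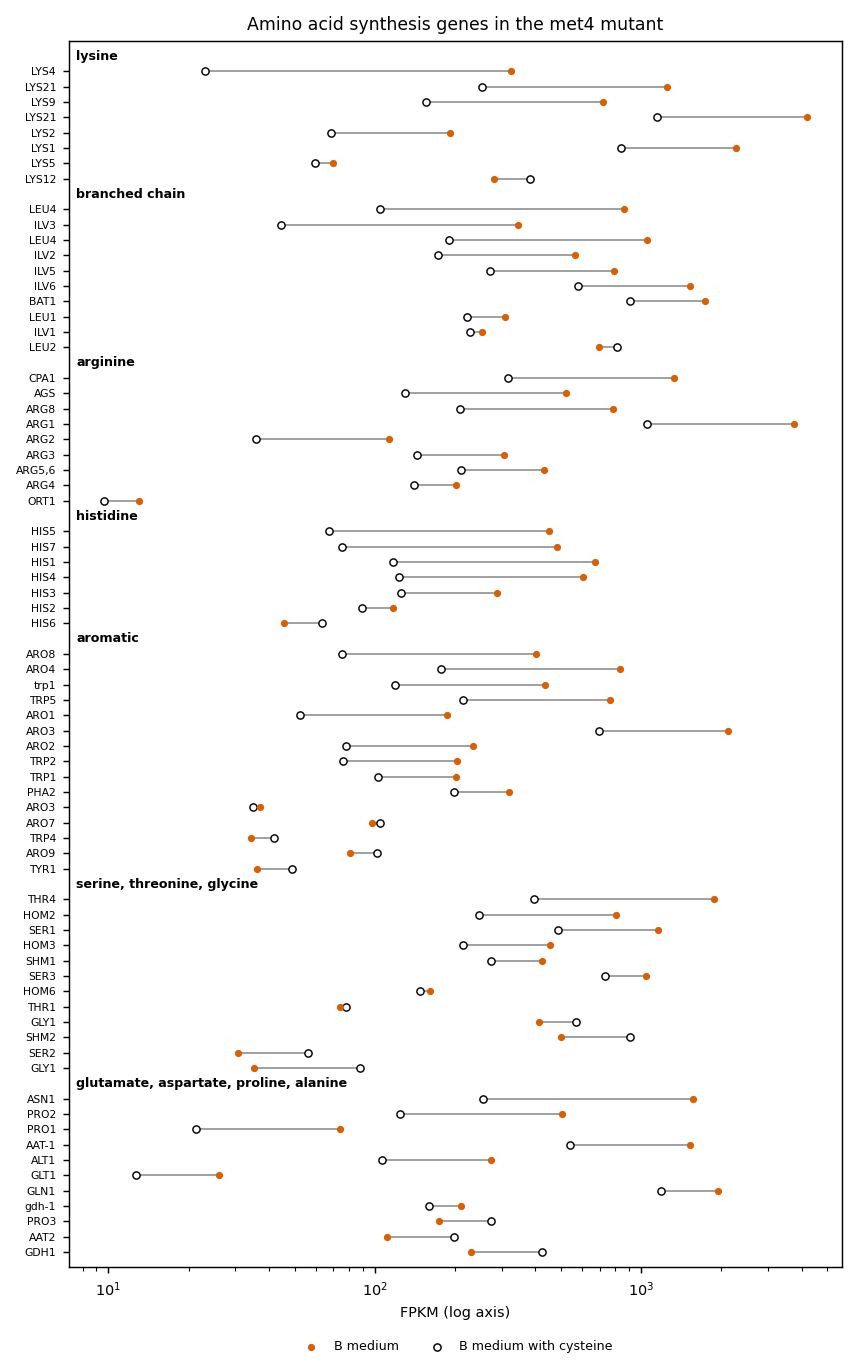
Level of the reported genes of 7 amino acid synthesis pathways in the mutant, in FPKM on a log axis, with B medium in orange and B medium with cysteine in white, 1 library each and no error. Rows are ordered within each pathway by their difference. In the lysine, branched-chain, arginine, histidine and aromatic pathways most orange points lie to the right, and the exceptions sit at the foot of each pathway.

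Of the cytosolic aminoacyl-tRNA synthetases, which charge tRNAs with amino acids, 8 of 22 were higher and 1 lower in B medium. DED81, the asparaginyl-tRNA synthetase, was the third highest gene of the whole comparison with 1299 FPKM without and 72.3 FPKM with cysteine (4.15). TYS1, ILS1, CDC60 and MES1, for tyrosine, isoleucine, leucine and methionine, had differences of 1.79, 1.81, 1.56 and 1.48. PRS, for proline, had 22.5 and 88.6 FPKM (-1.93). The 22 rows include HTS1, GRS1 and VAS1, for histidine, glycine and valine, whose products are named mitochondrial and whose budding yeast counterparts serve both compartments. VAS1 was chosen after its values were seen. Their differences were 1.01, 0.85 and 0.32, and without them 7 of 19 rows were higher. Cytosolic ribosomal proteins were higher in 26 of the 28 rows that were long enough to compare, out of 79, with a median of 1.77. RPL3 had 891 and 100.2 FPKM (3.14), RPL5 599.96 and 84.9 FPKM (2.81) and RPS6 938 and 143 FPKM (2.71). The other 51 ribosomal protein rows did not pass the filters on level and length.

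Ribosome biogenesis differed little. Of 121 rows 12 were higher and 1 lower, shares near or under those of all genes, with a median of 0.28. FAL1, a helicase of pre-rRNA processing, had 966 and 176 FPKM (2.45), RRP15 680.3 and 138 FPKM (2.29) and BMS1, a GTPase of small subunit assembly, 119 and 25.1 FPKM (2.21). RPA135, the second largest subunit of RNA polymerase I, which transcribes ribosomal RNA, had 108 and 19.9 FPKM (2.39). Among translation factors 4 of 43 were higher (9.30%, under the 12.7% of all genes) and 1 lower, HBS1, a ribosome rescue factor in budding yeast, with 66.2 and 169 FPKM (-1.34). The most abundant was a row of elongation factor 1-alpha, TEF1 (HPODL_00974), with 17213 and 7418 FPKM (1.21). RLI1, which recycles ribosomes and carries iron-sulfur clusters, had 392 and 90.2 FPKM (2.11).

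The largest positive difference of all fell on an adaptor for the removal of membrane proteins. In budding yeast Bul1 and Bul2 link the ubiquitin ligase Rsp5 to permeases that are then taken up and degraded. The row BUL1 (HPODL_03171, chromosome VII) had 598 FPKM without and 16.2 FPKM with cysteine (5.12). A second row of that name (HPODL_02275, chromosome I) had 1739 and 117 FPKM (3.89), and BUL2 (HPODL_03170), next to the first on chromosome VII, 355 and 27.9 FPKM (3.62). The wild type had 82.1 and 20.2 FPKM (1.97), 254 and 167 FPKM (0.60) and 70.6 and 49.6 FPKM (0.50) in these rows, B medium first. Of the 30 ubiquitin ligase and adaptor rows 5 were higher (16.7%, against 12.7% of all genes) and 1 lower (3.33%, against 11.4%). Besides the BUL rows, the higher ones were UBR1, which recognises protein ends, with 36.4 and 11.5 FPKM (1.58), and the listerin row RKR1 with 31.2 and 12.2 FPKM (1.29).

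Amino acid permeases showed no common direction, with a median of -0.06. Of 37 rows 10 were higher (27.0%, against 12.7% of all genes) and 4 lower (10.8%, against 11.4%). AGP2, a general amino acid permease in its name, had 180.4 and 21.5 FPKM (3.01) in the row HPODL_04823, and put4, for proline, 155 and 38.9 FPKM (1.96) in HPODL_01140. ALP1, for basic amino acids, had 5.92 and 60.7 FPKM (-3.16). Among the vacuolar exporters AVT4 had 138 and 57.2 FPKM (1.25) and 196 and 82.6 FPKM (1.23) in its 2 rows. The vacuole and autophagy rows included PRB1, the vacuolar protease also called cerevisin, with 4739.7 and 1611 FPKM (1.56), and ATG13, the regulatory subunit of the kinase that starts autophagy, with 237 and 66.6 FPKM (1.81), and 4 of 29 were higher (13.8%, near the 12.7% of all genes) and 2 lower. Proteasome rows had a median of 0.54, and 33 of 40 lay above 0, but only 4 reached 2-fold. These were ECM29 with 96.7 and 40.6 FPKM (1.23), BLM10 with 144 and 62.8 FPKM (1.18), RPN7 with 578 and 268 FPKM (1.11) and psmd-9 with 26.7 and 12.1 FPKM (1.08). In nitrogen use 8 of 47 were higher and 4 lower, with a median of 0.23, where 12.7% of all genes were higher and 11.4% lower. The row dao1 (HPODL_02914) of D-amino acid oxidase had 558 and 85.3 FPKM (2.69), and MEP3, an ammonium transporter, 39.8 and 109 FPKM (-1.43).

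Vitamin B6, the cofactor of aminotransferases, had both its synthesis and its uptake among the highest rows. The row pyroA, whose product makes pyridoxal phosphate, had 1694 FPKM without and 117 FPKM with cysteine (3.84). SNO1, the glutaminase that feeds it with ammonia, had 605 and 60.5 FPKM (3.30), and TPN1, the vitamin B6 importer, 578 and 49.95 FPKM (3.51). In the wild type the same rows had 85.2 and 49.8 FPKM (0.76), 103 and 58.4 FPKM (0.81) and 105 and 25.2 FPKM (2.01). PAN6, of pantothenate synthesis, had 317 and 61.2 FPKM (2.36), vht1, for biotin uptake, 195 and 63.3 FPKM (1.61) and NPT1, which salvages nicotinate, 939 and 320.1 FPKM (1.55). Thiamine differed. THI20, of thiamine synthesis, had 43.2 and 157 FPKM (-1.84), and TPC1, the mitochondrial carrier of its active form, 41.6 and 12.6 FPKM (1.64). Over the 30 B vitamin rows 9 were higher (30%, against 12.7% of all genes) and 1 lower (3.33%, against 11.4%). The family median was -0.01, so the higher rows were still a minority of the family.

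Copper uptake was far higher with cysteine. CTR1 (HPODL_01154, chromosome VI), the high-affinity copper importer of the plasma membrane, had 169 FPKM without and 16794 FPKM with cysteine (-6.63), the largest difference in either direction. With cysteine its level ranked 3 among the compared genes and in B medium 881. FRE7, a reductase that in budding yeast responds to copper and prepares it for uptake, had 70.5 and 4239 FPKM (-5.89). CCC2, which loads copper in the secretory pathway, had 50.8 and 155 FPKM (-1.59). HMA5, named for a copper-transporting ATPase, went the other way with 374 and 53.7 FPKM (2.78). The wild type had 139 and 12774 FPKM (-6.52) for CTR1, 33.6 and 2974 FPKM (-6.43) for FRE7 and 55.04 and 53.9 FPKM (0.03) for HMA5.

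Factors that assemble cytochrome c oxidase, the copper and heme enzyme at the end of the respiratory chain, were lower in B medium in 7 of 7 compared rows, and 11 more rows of the family did not pass the filters. COX15 and COX10, which make heme A, had 132 and 1797 FPKM (-3.76) and 91.9 and 628 FPKM (-2.76). SCO1 and COX11, which hand copper to the enzyme, had 119.8 and 1557 FPKM (-3.69) and 70.3 and 470.05 FPKM (-2.72). MSS51, which promotes synthesis of the Cox1 subunit, had 108 and 800.1 FPKM (-2.88). SHY1 stood nearest the threshold with 38.6 and 147 FPKM (-1.90). The respiratory complexes themselves pointed the other way. Of 18 subunit rows 17 were above 0 and 4 at least 2-fold higher, with a median of 0.68. Another 31 subunit rows did not pass the filters. CYT1, cytochrome c1, had 644 and 292 FPKM (1.14) and ATP5, of ATP synthase, 843 and 400.1 FPKM (1.07). Compared rows of oxidase assembly factors and of respiratory chain and ATP synthase subunits therefore had medians on opposite sides of 0.

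Genes for protein synthesis inside mitochondria were lower in B medium. All 38 compared mitochondrial ribosomal protein rows, of 69 in the table, were at least 2-fold lower, with a median of -1.93 and a range of -3.01 to -1.19. RML2 had 33.4 FPKM without and 277 FPKM with cysteine (-3.01) and MRPL6 62.2 and 452 FPKM (-2.84). Of the mitochondrial aminoacyl-tRNA synthetases 9 of 12 were lower. MSW1, for tryptophan, had 59.9 and 551 FPKM (-3.18) and MST1, for threonine, 22.6 and 181 FPKM (-2.95). Cytosolic and mitochondrial synthetases, and likewise cytosolic and mitochondrial ribosomal proteins, thus had medians of opposite sign. Counting HTS1, GRS1 and VAS1 as mitochondrial, a choice made after the values had been seen, left 9 of 15 mitochondrial synthetase rows lower and 1 higher, with a median of -1.21 against 0.43 for the cytosolic ones.

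The wider set for mitochondrial translation, RNA and genome maintenance had 16 of 35 rows lower and 1 higher. SLM3, which adds sulfur to mitochondrial tRNAs, had 9.19 and 174 FPKM (-4.10). PUF3, which in budding yeast binds messages for mitochondrial proteins, had 73.04 and 1027 FPKM (-3.80), and MEF1, a mitochondrial elongation factor, 7.40 and 78.8 FPKM (-3.25). The exception that was higher was AEP3, with 86.7 and 30.9 FPKM (1.46). Import and folding had 16 of 25 rows lower and 0 higher, and another 22 rows of the family did not pass the filters. The row mia-40, for the oxidative import of cysteine-rich proteins into the intermembrane space, had 114 and 861 FPKM (-2.91), HSP60, the matrix chaperonin, 41.00 and 304 FPKM (-2.86), MGE1, a cochaperone of the import motor, 186 and 1258 FPKM (-2.75) and SSC1, the matrix Hsp70, 437 and 1849 FPKM (-2.08). PHB1 and PHB2, the prohibitins, had 478 and 1606 FPKM (-1.75) and 514 and 1895 FPKM (-1.88).

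**Figure D4:**
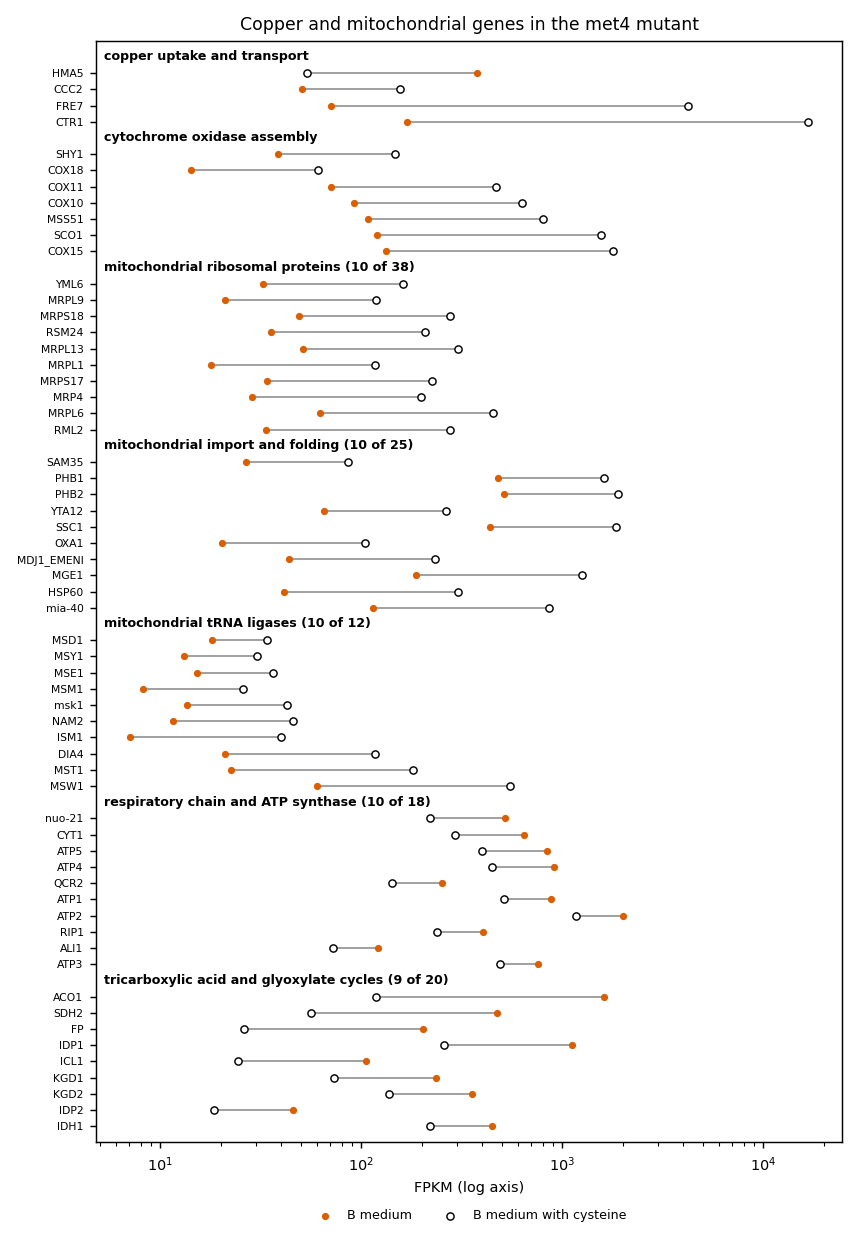
Level of copper and mitochondrial genes in the mutant, in FPKM on a log axis, with B medium in orange and B medium with cysteine in white, 1 library each and no error. Where a group is cut, the rows drawn are those reported among the ones with the largest absolute difference. Orange points lie to the left for CTR1, FRE7, CCC2, oxidase assembly, mitochondrial ribosomal proteins, import and tRNA ligases, and to the right for HMA5 and the drawn rows of the respiratory chain and the tricarboxylic acid cycle.

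In heme and ubiquinone synthesis 8 of 16 rows were lower and 3 higher. HEM1, the 5-aminolevulinate synthase that opens heme synthesis, had 152 and 1139.5 FPKM (-2.90), and HEM15, the ferrochelatase that closes it, 142 and 513 FPKM (-1.85). HEM3, a middle step, had 384 and 167 FPKM (1.20). COQ2 and COQ5, of ubiquinone synthesis, had 19.6 and 103 FPKM (-2.33) and 118 and 378 FPKM (-1.67), and COQ9 321 and 112 FPKM (1.51). Both pathways thus held rows on either side.

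The tricarboxylic acid and glyoxylate cycles, which burn acetyl units and supply precursors of amino acids, had 10 of 20 rows higher and 0 lower. ACO1, the mitochondrial aconitase and an iron-sulfur enzyme, had 1605 FPKM without and 118 FPKM with cysteine (3.75). SDH2 and the row FP, the iron-sulfur and flavoprotein subunits of succinate dehydrogenase, had 475 and 55.9 FPKM (3.06) and 202 and 25.96 FPKM (2.91). IDP1, a mitochondrial isocitrate dehydrogenase, had 1115 and 258 FPKM (2.11), KGD1, of 2-oxoglutarate dehydrogenase, 235 and 72.7 FPKM (1.68) and ICL1, the isocitrate lyase, 106 and 24.2 FPKM (2.08). PCK1, the phosphoenolpyruvate carboxykinase of gluconeogenesis, had 1369.6 FPKM without and 109.8 FPKM with cysteine (3.63), against 280.01 and 65.4 FPKM (2.08) in the wild type. PYC, the pyruvate carboxylase that refills the cycle, had 1061 and 301 FPKM (1.81). FBP1, the gluconeogenic bisphosphatase, lay within 2-fold with 789.7 and 489.9 FPKM (0.69).

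The core of glycolysis was lower in B medium. All 11 rows of the steps from glucose 6-phosphate to pyruvate were at least 2-fold lower in B medium, with a median of -1.72. They held 4.94% of the summed FPKM of the compared genes in B medium and 14.01% with cysteine. GPD (HPODL_04957), the glyceraldehyde 3-phosphate dehydrogenase, was the most abundant compared gene in both libraries and had 19744 FPKM without and 50377 FPKM with cysteine (-1.35). GPM1 (HPODL_01332), the phosphoglycerate mutase, had 2581 and 11260.4 FPKM (-2.12), PYK1, the pyruvate kinase, 2389 and 9324 FPKM (-1.96), ENO1, enolase, 4567 and 15073 FPKM (-1.72) and FBA1, aldolase, 5072 and 16386 FPKM (-1.69). PFK2, of phosphofructokinase, had the smallest difference with 251 and 565 FPKM (-1.17). In the wild type 10 of the 11 rows were at least 2-fold lower, the exception being TPI1, triosephosphate isomerase, with 2919 and 4864 FPKM (-0.74), against 1505 and 5739 FPKM (-1.93) in the mutant. The core steps, GPD and PFK2 were singled out from the glycolysis family after their values were seen. Over that whole family, which also holds alcohol dehydrogenases, 14 of 36 were lower and 2 higher. The row adh (HPODL_04528), an alcohol dehydrogenase, had 1158 and 4599 FPKM (-1.99), and the next row, alcA (HPODL_04529), 206 and 63.02 FPKM (1.69).

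The pentose phosphate pathway had 1 of 11 rows lower (9.09%, against 11.4% of all genes) and 0 higher. That row was RKI1 (HPODL_02541), the ribose 5-phosphate isomerase, with 60.1 and 148 FPKM (-1.29). Among methanol and peroxisome rows 5 of 39 were higher (12.8%, near the 12.7% of all genes) and 7 lower (17.9%, against 11.4%). FMDH, formate dehydrogenase, which ends methanol oxidation, had 244 and 1384 FPKM (-2.50), DAS1, dihydroxyacetone synthase, 18.2 and 46.2 FPKM (-1.30) and PXP9, the peroxisomal catalase, 895 and 131 FPKM (2.76). The sugar transporter family had 6 of 19 higher (31.6%, against 12.7% of all genes) and 1 lower (5.26%, against 11.4%). STL1 (HPODL_04500), a row named for the glycerol importer of budding yeast, had 506 FPKM without and 31.2 FPKM with cysteine (3.98), and SNF3, named for a glucose sensor, 10.1 and 41.5 FPKM (-1.93).

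Iron genes showed no single direction. FTR1, the iron permease, had 863 and 2320.1 FPKM (-1.43) and its partner oxidase FET3 (HPODL_04351), chosen after its values were seen, 1215 and 573 FPKM (1.08). MRS4, which brings iron into mitochondria, had 125 and 901 FPKM (-2.84), and CCC1, which stores it in the vacuole, 364 and 77.5 FPKM (2.22). AFT2, named for an activator of iron uptake genes, had 119 and 354 FPKM (-1.57), and the siderophore transporter mirB 119 and 426 FPKM (-1.83). Of the 25 copper and iron rows 4 were higher (16%, against 12.7% of all genes) and 7 lower (28%, against 11.4%). In iron-sulfur cluster assembly 3 of 12 were higher (25%, against 12.7% of all genes) and 0 lower. GRX4, a monothiol glutaredoxin that signals iron in budding yeast, had 811 FPKM without and 69.2 FPKM with cysteine (3.53), NAR1 67.3 and 16.9 FPKM (1.93) and NFS1, the cysteine desulfurase that takes sulfur from cysteine for the clusters, 659 and 300.1 FPKM (1.13). Zinc uptake was lower in B medium at ZRT2, a plasma membrane importer, with 182 and 2118 FPKM (-3.53) and at ZAP1, its activator in budding yeast, with 41.6 and 299 FPKM (-2.82). ZRT3, which releases zinc from the vacuole, was higher with 401 and 114 FPKM (1.80).

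Among thiol and superoxide defence rows 6 of 15 were higher (40%, against 12.7% of all genes) and 1 lower (6.67%, against 11.4%). Another 15 rows of the family did not pass the filters. The lower row was trxB, thioredoxin reductase, with 112 FPKM without and 2950.2 FPKM with cysteine (-4.70). SOD2, the manganese superoxide dismutase of mitochondria, had 1529.9 and 118 FPKM (3.69), and ccp-1, the mitochondrial cytochrome c peroxidase, 736 and 76.9 FPKM (3.24). GLR1, glutathione reductase, had 327 and 153 FPKM (1.09) and GCS1, which makes the first bond of glutathione, 117 and 92.5 FPKM (0.34). PRX1, a mitochondrial peroxiredoxin, had 145 and 55.4 FPKM (1.37), against 3015 and 46.5 FPKM (5.99) in the wild type. The same measure was thus larger in the wild type for PRX1, and of similar size for trxB at -4.84 and SOD2 at 4.04.

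In sulfate uptake and assimilation 4 of 10 were higher (40%, against 12.7% of all genes) and 3 lower (30%, against 11.4%) in B medium. SUL1, the sulfate permease, had 27.1 and 11.8 FPKM (1.13), MET3, which activates sulfate, 37.4 and 16.8 FPKM (1.11) and MET14, the kinase that follows, 156 and 42.6 FPKM (1.85). MET16, the PAPS reductase, had 159 and 128 FPKM (0.30). The sulfite reductase subunits MET10 and MET5 lay below 0, with 23.2 and 127 FPKM (-2.41) and 26.97 and 44.8 FPKM (-0.71). MET1 and met8, which make its siroheme, parted with 44.7 and 125 FPKM (-1.47) and 219 and 78.8 FPKM (1.46). The phosphatase row HAL21 had 92.96 and 80.2 FPKM (0.21) and LPZ3C, a putative sulfate transporter, 14.1 and 32.04 FPKM (-1.13). In the wild type SUL1 had 1017 and 11.6 FPKM (6.33), MET3 738 and 14.5 FPKM (5.58) and MET14 548 and 41.1 FPKM (3.70).

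Of the sulfur amino acid and S-adenosylmethionine rows 3 of 13 were higher and 3 lower. Each was 23.1% of the family, against 12.7% higher and 11.4% lower among all genes. Those higher were MET2, which acetylates homoserine, with 410.4 and 117 FPKM (1.80), met-2, a cystathionine beta-lyase, with 797 and 269 FPKM (1.56), and MET6, the methionine synthase, with 378 and 169.8 FPKM (1.15). Those lower were cysB (HPODL_05065), a cysteine synthase, with 583 and 1266 FPKM (-1.12), mmuM, a homocysteine methyltransferase, with 92.9 and 219 FPKM (-1.23), and MET7, which lengthens folates, with 19.9 and 47.5 FPKM (-1.22). The row sam1, S-adenosylmethionine synthase, had 218 and 264 FPKM (-0.27) and SAH1, which removes S-adenosylhomocysteine, 498 and 438 FPKM (0.18). Differences of the other 5 rows, MET12, MET13, MET7_SCHPO, OAS-TL and the second cysB row (HPODL_02013), ran from -0.34 to 0.70. In the wild type sam1 had 3086 and 193 FPKM (3.99) and MET6 1210.2 and 139 FPKM (3.11).

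Scavenging of organic sulfur had 4 of 18 rows higher (22.2%, against 12.7% of all genes) and 1 lower (5.56%, against 11.4%). All 4 were sulfonate dioxygenases, which free sulfite from sulfonates. Of the 3 rows named YP54_SCHPO, HPODL_05052 had 286 and 22.5 FPKM (3.61), HPODL_01978 149.9 and 15.9 FPKM (3.16) and HPODL_05061 95.6 and 26.8 FPKM (1.80). JLP1 (HPODL_00207) had 38.8 and 17.8 FPKM (1.09). The wild type had 9095 and 1.21 FPKM (12.01), 10802 and 6.23 FPKM (10.55), 1517 and 0.25 FPKM (10.24) and 6263 and 8.01 FPKM (9.44) in these rows. All 4 mutant levels in B medium were thus far under the wild-type levels, and rows with 1 name may divide reads between them. YGL4_YEAST, a putative oligopeptide transporter, had 43.03 and 162 FPKM (-1.89). The other 13 rows, among them the glutathione breakdown genes DUG1 to DUG3 and ECM38, the arylsulfatase atsA and the methionine permease MUP3, lay within 2-fold, between -0.73 and 0.81. Of the regulators MET30, whose F-box product holds Met4 in check in budding yeast, had 48.1 and 186 FPKM (-1.93), and MET32, a DNA-binding partner of Met4, 53.7 and 34.3 FPKM (0.63). The ubiquitin ligase subunit CDC53 had 63.6 and 33.6 FPKM (0.90) and the 2 CDC34 rows -0.42 and 0.02.

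Polyamine synthesis and the methionine salvage cycle, which recovers the methylthioadenosine it leaves, were counted as 1 family, with 4 of 9 rows higher and 1 lower. SPE2, the S-adenosylmethionine decarboxylase, had 97.01 FPKM without and 15.9 FPKM with cysteine (2.54). Beside it on chromosome II, spe-3 (HPODL_04967), a spermidine synthase, had 112 and 43.9 FPKM (1.34). Another spermidine synthase row, SPE3 (HPODL_00624), had 43.5 and 44.7 FPKM (-0.04). SPE1, the ornithine decarboxylase, lay within 2-fold with 140 and 76.8 FPKM (0.86). MEU1, the methylthioadenosine phosphorylase, had 370.1 and 76.4 FPKM (2.26) and MDE1, a later step, 178 and 56.97 FPKM (1.63). FMS1, the polyamine oxidase, had 785 and 3118 FPKM (-1.99). Polyamine transporters were counted among the multidrug and ABC transporters, where 10 of 23 were higher. TPO1 had 203 and 44.4 FPKM (2.17), TPO4 201 and 44.6 FPKM (2.15) and YBT1, named for an ATP-dependent bile acid carrier, 191 and 26.1 FPKM (2.83), while CDR1, a drug pump, had 19.9 and 70.6 FPKM (-1.78).

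Of 40 cell wall rows 8 were higher and 3 lower, with a median of 0.26 and 12.7% higher among all genes. The higher rows included the glucan remodelling enzymes GAS5 with 67.2 and 8.09 FPKM (2.91) and SCW4 (HPODL_02733) with 165 and 21.8 FPKM (2.86), and CHS3, chitin synthase, with 15.2 and 4.22 FPKM (1.64). CTS1, an endochitinase, was among the lower ones with 85.3 and 187 FPKM (-1.12). In lipid synthesis 6 of 42 were higher (14.3%, against 12.7% of all genes) and 3 lower (7.14%, against 11.4%). RSB1, which exports sphingoid bases, had 122 and 13.8 FPKM (3.06), while SUR2 and SCS7, which hydroxylate sphingolipids, had 321 and 1262 FPKM (-1.97) and 333 and 1252 FPKM (-1.91). ACC1 and FAS1, of fatty acid synthesis, had 113 and 37.03 FPKM (1.58) and 136 and 57.4 FPKM (1.23). Sterol synthesis had 6 of 34 rows lower (17.6%) and 3 higher (8.82%). ERG26 and ERG25, which remove sterol methyl groups, had 34.5 and 159 FPKM (-2.17) and 97.6 and 328 FPKM (-1.74). The row sre1, a sterol-responsive factor, went the other way at 1839 and 612 FPKM (1.59).

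Genes of the cell cycle had medians near that of all genes in the mutant. Of 52 histone and replication rows 4 were higher (7.69%) and 3 lower (5.77%). Of 68 cyclin, spindle and septin rows 10 were higher (14.7%) and 1 lower (1.47%). Among all genes 12.7% were higher and 11.4% lower. PCL1, a G1 cyclin, had 42.9 and 7.83 FPKM (2.31), and SLD5, of the replication complex GINS, 6.56 and 39.6 FPKM (-2.43). Their levels were low, with medians of 17.8 and 24.2 FPKM in B medium. Among transcription factors 19 of 119 were lower and 6 higher. YN25_SCHPO, an uncharacterized regulator, had 69.1 and 703 FPKM (-3.33), XBP1, a repressor, 48.7 and 194 FPKM (-1.97) and ADR1, an activator of genes for non-fermentable carbon in budding yeast, 186 and 36.6 FPKM (2.31). Of 32 cytosolic chaperone rows 1 was higher (3.1%) and 3 lower (9.4%), both under the shares of all genes. The higher row was SSB1, the ribosome-bound Hsp70, with 493 and 119.8 FPKM (2.03). HSP26 was among the lower ones with 159 and 499.6 FPKM (-1.64). Purine and pyrimidine synthesis had 3 of 23 higher and 2 lower, shares near or under the 12.7% and 11.4% of all genes. Its median was -0.32, and 16 rows lay below 0. URA5 had the highest difference with 254 and 59.9 FPKM (2.07), and URA9 the lowest with 100.04 and 296 FPKM (-1.56).

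Position on the chromosome was not used to choose or group the genes. Among 3726 pairs of adjacent rows with both members compared, both were higher in B medium in 107 and both lower in 77, and 77 pairs were split between higher and lower. Of the compared neighbours of higher genes 22.8% were themselves higher, against 12.7% of all compared genes, and of the neighbours of lower genes 18.3% were lower, against 11.4%. The share was 24% for divergent, 20.3% for convergent and 23.7% for tandem pairs on the higher side. Examples with a row among the 30 highest or lowest were the divergent pairs pyroA and SNO1 on chromosome V, 178 bases apart, DED81 and FMP40 on chromosome III, 122 bases apart, and CPA1 and RPL3 on chromosome II, 182 bases apart. FMP40 had 320.3 and 31.9 FPKM (3.29). Rows that lie this close can take reads from each other's transcript ends, and the part of this in the shares was not tested.

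The media were compared in the wild type in the same way, with libraries that the mutant comparison does not share. There 1003 genes were at least 2-fold higher in B medium (22.3%) and 572 lower (12.7%), around a median difference of 0.18. Of the 569 genes higher in the mutant, 258 (45.3%) were also higher in the wild type, 16 were lower and 295 within 2-fold. The 258 were 25.7% of the wild-type list. Of the 513 genes lower in the mutant, 295 (57.5%) were also lower in the wild type, where they made 51.6% of the list, and 32 were higher. Oxidase assembly had medians of -2.76 in the mutant and -2.92 in the wild type, import -1.48 and -1.68, and core glycolysis -1.72 and -1.34. Non-sulfur amino acid synthesis had 42 of 73 rows higher in the mutant and 9 in the wild type, with medians of 1.34 and -0.15. Cyclin, spindle and septin rows were higher in 10 of 68 in the mutant and in 48 in the wild type, and replication rows in 4 and 28 of 52. With 1 library in each group the difference between the strains in these responses was not tested.

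**Figure D5:**
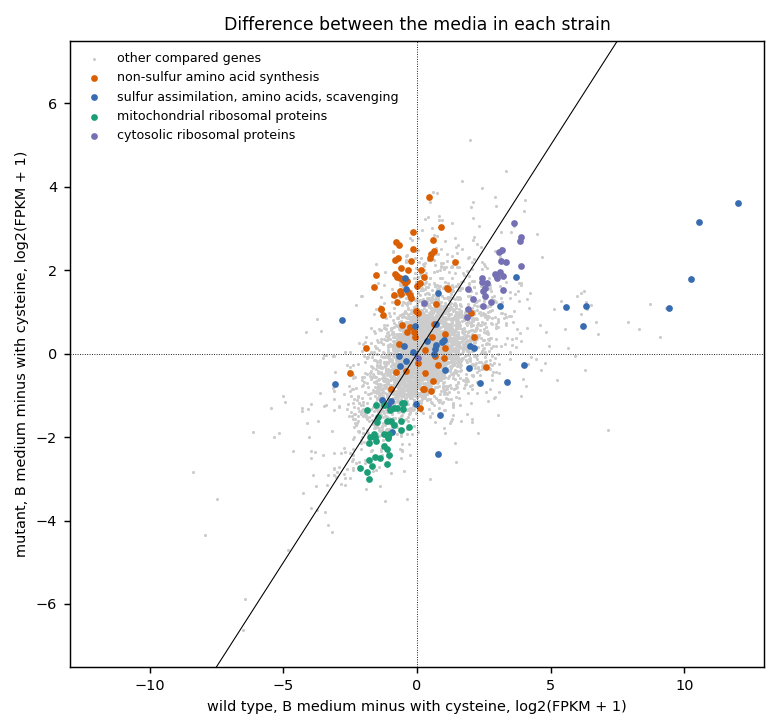
Difference between B medium and B medium with cysteine in the wild type (x axis) and in the mutant (y axis) for the 4495 compared genes, as differences of log2(FPKM + 1), 1 library per group. The solid line marks equal differences. Amino acid synthesis genes lie around 0 on the x axis and mostly above 0 on the y axis, several sulfur genes lie far to the right and under the line, and in both strains cytosolic ribosomal protein genes lie mostly above 0 and mitochondrial ones below 0.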

How the data were processed

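RNA was measured in 4 libraries, 1 for each strain and medium. The authors' deposited table gives 1 FPKM value per gene and library. TopHat, Cufflinks 2.1.1 and Cuffdiff were used, per the submitters' processing notes, and the genome build, annotation and settings are not stated. FPKM values do not keep read numbers, so depth and counting error are unknown. Values were not rescaled. Rows averaging at least 5 FPKM and with a span of at least 600 bases were compared by log2(FPKM + 1), and a fold of 2 was counted. No test was possible with 1 library per group. The calculation was tested on simulated data.

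Families were matched by gene name and product. The rule named zip1, LEU2, the described genes among the 30 highest and 30 lowest differences, all members of the sulfur families and the 10 members of every other family that differed most. The comparison, families and rule were chosen with earlier results of these data known. Core glycolysis, the sum over amino acid pathways and the iron-sulfur enzymes were put together after their values were seen. Alternatives were pseudocounts of 0.1 and 5, no filter or 10 FPKM, no filter or 1000 bases, and 4 scalings. A few genes are not reported here. Python 3 with pandas and numpy was used.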

Additional observations from a re-analysis of the deposited data

Results flagged for a closer look

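Among the named genes, 12 were at least 2-fold different between the media in both strains but in opposite directions. Each strain had 1 library per medium, so the difference between the strains was not tested. The first 6 were higher in B medium in the mutant and lower in the wild type. LYS21 (HPODL_02806), a homocitrate synthase row of the lysine pathway, had 4203 and 1143 FPKM (1.88) in the mutant and 826 and 2413 FPKM (-1.55) in the wild type, B medium first. ARO3 (HPODL_00199), a DAHP synthase, had 2123 and 698 FPKM (1.60) in the mutant and 316 and 969.9 FPKM (-1.62) in the wild type, B medium first. ATR1 (HPODL_01748), a drug exporter row, had 156 and 59.9 FPKM (1.37) in the mutant and 29.8 and 77.8 FPKM (-1.35) in the wild type, B medium first. STL1 (HPODL_04540), a sugar transporter row, had 32.9 and 14.5 FPKM (1.12) in the mutant and 12.5 and 34.00 FPKM (-1.37) in the wild type, B medium first. ARG3, the ornithine carbamoyltransferase, had 305 and 144 FPKM (1.08) in the mutant and 97.3 and 248 FPKM (-1.34) in the wild type, B medium first. HOM3, the aspartokinase that opens the pathway to threonine and methionine, had 456 and 215 FPKM (1.08) in the mutant and 174 and 446 FPKM (-1.35) in the wild type, B medium first. The others were lower in B medium in the mutant and higher in the wild type. NSL1, of the kinetochore, had 24.6 and 57.5 FPKM (-1.19) in the mutant and 114 and 27.1 FPKM (2.04) in the wild type. YL040_YEAST, a cell wall protein, had 12.6 and 30.4 FPKM (-1.20) in the mutant and 21.9 and 8.11 FPKM (1.33) in the wild type. RKI1 (HPODL_02541), the ribose 5-phosphate isomerase, had 60.1 and 148 FPKM (-1.29) in the mutant and 209 and 81.5 FPKM (1.35) in the wild type. AFT2, an iron regulator, had 119 and 354 FPKM (-1.57) in the mutant and 179 and 70.8 FPKM (1.32) in the wild type. HSP26, a small heat shock protein, had 159 and 499.6 FPKM (-1.64) in the mutant and 133 and 31.1 FPKM (2.06) in the wild type. YG64_SCHPO, an uncharacterized permease, had 39.7 and 151 FPKM (-1.91) in the mutant and 142 and 67.98 FPKM (1.05) in the wild type. Over all compared genes such opposite pairs numbered 16 in the first direction and 32 in the second. These were 2.81% of the genes higher in the mutant and 6.24% of those lower. In the wild type 12.7% of all compared genes were lower and 22.3% higher.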

How the results depend on the processing

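No paired analysis was possible because each group holds 1 library, and no replicate could be left out. The count of higher genes ran from 421 (rows of at least 1000 bases) to 692 (no filter on length), and that of lower genes from 333 to 646 under the same settings. Median-of-ratios scaling gave 526 higher and 553 lower genes, TPM 507 and 584, the upper quartile 550 and 524, and the total of rows of at least 600 bases 662 and 449. Without the filter on length, 70 cytosolic and 66 mitochondrial ribosomal protein rows, 26 import rows and 17 oxidase assembly rows passed 2-fold in their direction. With a minimum of 1000 bases these were 3, 11, 11 and 4, because fewer rows were compared. Amino acid synthesis rows at least 2-fold higher numbered 37 to 45 under all 10 alternatives. Of 353 named genes past 2-fold, 28 dropped under 2-fold with a pseudocount of 5 and at most 10 under a scaling. None changed sign under any alternative in which it was compared, which was fixed in advance. Pseudocounts keep the sign, filters leave the values unchanged, and the scalings moved the median of all compared genes only between -0.08 and 0.10. The medians of sulfur regulators, B vitamins, copper and iron, sulfur amino acids, amino acid permeases and replication lay within 0.1 of 0 and changed sign under at least 1 scaling. The unknown depth limits the genes of few FPKM most.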

Other observations

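A list of enzymes that carry an iron-sulfur cluster in budding yeast was put together after the values had been seen, so its counts are a description only. Of 21 compared rows 8 were at least 2-fold higher in B medium in the mutant and 0 lower, with a median difference of 0.75 against 0.06 for all compared genes, of which 12.7% were higher. In the wild type 8 of the same rows were higher, with a median of 0.69. Among the higher rows were LYS4, ACO1, SDH2, ILV3, RLI1, ELP3 and REV3. ELP3, the catalytic subunit of Elongator, had 35.5 and 13.5 FPKM (1.33). LEU1, the isopropylmalate dehydratase, and MET5, of sulfite reductase, lay within 2-fold at 0.47 and -0.71. Several of these rows are also counted in the amino acid and tricarboxylic acid families.

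GCN4, the activator of general amino acid control, was also looked up after the values had been seen. Its row (HPODL_00153) had 9881 FPKM without and 6473 FPKM with cysteine (0.61) in the mutant and 3204 and 10483 FPKM (-1.71) in the wild type. In budding yeast its activity is set mainly through translation of the message, which these libraries do not measure. GCN2, the kinase that senses uncharged tRNA, had 31.3 and 31.2 FPKM (0.00) in the mutant, and LEU3, an activator of the leucine genes, 15.1 and 15.9 FPKM (-0.07). AREA, named for a regulator of nitrogen use, had 164 and 52.4 FPKM (1.62), and HAP3 and HAP5, subunits of a factor for respiratory genes, 62.4 and 157 FPKM (-1.32) and 100.3 and 250.2 FPKM (-1.31). The other regulators looked up were GLN3, HAP1, MIG1, RTG3 and STP2. GLN3, HAP1, MIG1 and RTG3 had differences of 0.83, -0.82, 0.18 and -0.15, and the STP2 rows HPODL_02493, HPODL_04579 and HPODL_05362 -0.04, -1.57 and -0.60.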
